A study of Mus musculus with 20 samples.

Results

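The genes described here encode the enzymes that cut, protect and crosslink the extracellular matrix. The set was defined by gene symbol and held 46 of the 31053 genes listed in the expression matrices, all of which were found. It comprised 8 secreted matrix metalloproteinases (MMPs), 6 membrane-bound MMPs, 4 tissue inhibitors of metalloproteinases (TIMPs), 7 ADAMs, 11 ADAMTSs, 5 lysyl oxidases, 3 genes of plasminogen activation and 2 of procollagen processing. MMPs are zinc-dependent proteases that degrade collagens and other matrix proteins, and TIMPs bind and block them. ADAMs are membrane proteases that mostly release the outer parts of other membrane proteins, ADAMTSs are secreted relatives that cleave proteoglycans or trim procollagens, and lysyl oxidases crosslink collagen and elastin. Plasminogen activators generate plasmin, which degrades fibrin and can activate some MMP precursors. Fat tissue that grows or recruits cells has to open and rebuild this matrix. The measurements are mRNA counts in cells, so the amounts and activities of the enzymes themselves were not measured.

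The study asked which stromal and immune cells of mouse interscapular brown adipose tissue (iBAT) respond when new brown adipocytes form. Stromal vascular cells pooled from 3 to 4 mice were separated with magnetic beads into a fraction with immune lineage markers (Lin+) and one without (Lin-), and 1 single-cell RNA-seq library was made from each, giving 20 libraries from 10 experiments. Male C57BL/6J mice aged 8 to 14 weeks were kept at room temperature (RT, with a labelled housing temperature of 24 °C, plus or minus 2 °C), moved to cold at 6 °C for 4 days, or given a 4-day infusion with 0.75 nmol per hour of CL316,243 (CL), an ADRB3 agonist. Each of these 3 groups had 2 experiments. The Adrb1 line consisted of female Adrb1 fl/fl mice, also aged 8 to 14 weeks, which all received tamoxifen. Mice with 1 copy of Pdgfra-CreER, which deletes the β1-adrenergic receptor gene in cells that express Pdgfra (KO), and Cre-negative littermates (WT) were studied at RT and after cold, with 1 experiment per group. The RT libraries of that line were made with version 3 of the Chromium kit and its cold libraries with version 2, so cold and kit cannot be told apart there.

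After filtering, 126274 of 156759 barcodes remained, with median depths of 1204 to 4358 UMIs per cell. The Lin- library of RT replicate 2 stood apart, since 28.0% of its barcodes were kept. The Lin+ and Lin- libraries of CL replicate 2 shared 1098 cell barcodes, 17.1% of the smaller library, against at most 2.04% for any other pair of libraries. Adrb1 itself was at 0 and 0.508 CPM in the ASC1-like cells of the KO libraries and at 2.89 to 9.09 CPM in those of the other 8 experiments. Clusters were named from marker genes, without using the 46 genes to form them, as adipose stromal cells (ASC1-like, ASC2-like and ASC3-like), vascular endothelial cells (VEC-like), mural cells, Schwann cells, differentiating adipocytes, macrophages (MAC-like), monocytes (MONO-like), dendritic cells (DEND-like) and neutrophils (NEUT-like). Cthrc1 fibroblasts and cycling stromal cells were classes apart from the ASC-like classes and were not tested. In the C57 libraries the Cthrc1 class held 5 and 29 cells at RT, 34 and 90 after cold and 975 and 245 after CL. In the Adrb1 line it held 561 (WT) and 96 (KO) cells at RT and 124 and 75 after cold. Levels are UMI counts summed over the cells of a class in each library and given as counts per 1000000 counts of that class and library (CPM). The counts come from the 3′ ends of transcripts and were not scaled by transcript length, so levels are compared between classes and treatments and not between genes. Groups of libraries are compared by the edgeR quasi-likelihood test with Benjamini-Hochberg adjustment over all genes tested, and a call is an adjusted p under 0.05. That test gives no standard error. The SE printed with a log2 fold change is its absolute value divided by the square root of the test's F statistic, and is approximate.

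Among the 15 classes with at least 20 cells in both RT libraries, 26 of the 46 genes had their highest mean level in a stromal class, 6 in a vascular class, 6 in Schwann-like cells and 8 in a myeloid class. Each stromal class had its own leading members, which is a description of clusters of the same cells and was not tested. ASC1-like cells were highest for 8 genes, among them Mmp2 (gelatinase A; 1143 ± 113 CPM, SD, n = 2), Mmp14, the membrane-bound activator of Mmp2 (597 ± 290.1 CPM), and Pcolce, which enhances procollagen C-terminal processing (2397 ± 615 CPM). ASC2-like cells were highest for 7 genes, among them Timp2 (3722 ± 502 CPM), the aggrecanase Adamts5 (1370.5 ± 57.2 CPM), Loxl1 (664 ± 17.4 CPM) and the procollagen C-proteinase Bmp1 (477 ± 57.4 CPM). ASC3-like cells were highest for 8 genes, led by Mmp3 (stromelysin 1; 1225 ± 675 CPM). The spread of Mmp3 between the 2 RT libraries was wide, with 748 and 1703 CPM. The member most unequal between classes was Adamts16, at 107 ± 10.9 CPM in ASC2-like cells and at 6.59 CPM in the next class, Schwann-like cells.

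All 5 lysyl oxidases and both procollagen processing genes were highest in stromal classes. Among the 4 TIMPs the leading classes differed. Timp1 was highest in ASC3-like cells (189 ± 48.8 CPM), Timp2 in ASC2-like cells, Timp3 in Schwann-like cells (976 ± 191 CPM) and Timp4 in VEC-like cells (1051 ± 138 CPM). VEC-like cells were also highest for Adam15, Adamts1 and Adamts9, and mural-like cells for Adamts4 (133 ± 16.9 CPM) and Adamts7. In Schwann-like cells, the tissue-type plasminogen activator Plat stood at 477 ± 157 CPM and the membrane-bound Mmp15 and Mmp17 at 173 ± 76.9 and 62.4 ± 17.8 CPM.

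In the myeloid classes, NEUT-like cells were highest for Mmp9 (gelatinase B; 685 ± 49.5 CPM), the neutrophil collagenase Mmp8 (191 ± 104 CPM) and Adam8 (341 ± 26.0 CPM). Mmp13 (collagenase 3) was highest in MAC2-like macrophages (97.0 ± 43.6 CPM) and Mmp12 (macrophage elastase) in MAC3-like macrophages (44.6 ± 40.0 CPM). Of the MAC3-like cells, 33 of 65 in RT replicate 1 and 37 of 99 in RT replicate 2 were in the top 6% of doublet scores. They were kept in these levels. MAC1-like cells were left out of this ranking, since RT replicate 1 held 15 of them, and had a higher mean of Mmp12 (283 ± 365 CPM), from 21.98 and 2.00 corrected counts in the RT libraries. Plaur, the urokinase receptor, was highest in DEND4-like cells (761 ± 390.4 CPM), of which the RT libraries held 23 and 22, and stood at 682 ± 25.7 CPM in NEUT-like cells. In the RT libraries of the Adrb1 line the order was the other way, with Plaur at 26.8 (WT) and 104 CPM (KO) in DEND4-like cells and 624 and 753 CPM in NEUT-like cells. Stromal and vascular classes held 35 to 40 of the 46 genes at a mean of at least 1 CPM, and myeloid classes 12 to 24. These numbers were not set to equal depth. The RT libraries held 83886 and 96957 UMIs in DEND4-like cells, against 2117789 and 7560744 in ASC1-like cells. The neighbouring levels of several genes did not differ by more than their spread, for example Mmp23 in ASC3-like and ASC2-like cells (323 ± 40.7 and 319 ± 8.98 CPM) and Adamts2 in ASC2-like and ASC3-like cells (389 ± 8.40 and 374 ± 64.4 CPM).

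The response of ASC1-like cells to cold was examined first, because ASC1 is the stromal subtype that the study followed into new brown adipocytes. In these cells 39 of the 46 genes were tested. Cold raised 5 of them, Timp1, Mmp9, Adam12, Adam17 and Adamts7, and lowered 4, Plau, Plat, Adam19 and Adamts10. Of all 12543 genes tested in this contrast, 12.5% were called, 6.64% higher and 5.90% lower. The median log2 fold change was 0.35 over the 39 genes and 0.01 over all genes.

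Timp1, the secreted inhibitor of most MMPs, was at 101 and 85.6 CPM at RT, 1508 and 980.3 CPM after cold and 614 and 141 CPM after CL. The cold and RT libraries did not overlap, and the CL libraries lay between them, far apart from each other. The log2 fold change after cold was 3.80 ± 0.72 (SE), adjusted p = 0.0128. Mmp9 was close to 0 at RT, with 0.263 and 0 CPM, and reached 8.06 and 8.93 CPM after cold and 6.13 and 1.16 CPM after CL. Its RT libraries together held 1.99 corrected counts, so the change is given as a ratio of pooled CPM, which was 41.6 with a 95% exact interval of 11.3 to 343 for counting error only (adjusted p = 0.00724, edgeR). All 5 NEUT markers were at or under 3 counts in the ASC1-like cells of every C57 library, and the 5 general macrophage markers summed to 19.8 to 22.6 CPM at RT and 12.8 to 15.2 CPM after cold.

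Adam12, a membrane protease of mesenchymal progenitors that the study named, was at 35.1 and 41.5 CPM at RT, 176 and 167 CPM after cold and 208 and 95.5 CPM after CL. Every cold and CL library exceeded both RT libraries. The log2 fold change was 2.28 ± 0.30 (SE), adjusted p = 0.00291, for cold and 2.11 ± 0.30 (SE), adjusted p = 0.0181, for CL. The sheddase Adam17 changed least among the calls, from 31.5 and 48.3 CPM at RT to 51.6 and 54.0 CPM after cold (0.58 ± 0.16 (SE), adjusted p = 0.0442). Adamts7, which degrades cartilage oligomeric matrix protein, went from 4.98 and 9.50 to 14.4 and 15.2 CPM (1.26 ± 0.24 (SE), adjusted p = 0.0128). In both genes the RT and cold libraries did not overlap, and for Adam17 the gap between the groups was narrower than the gap between the RT libraries.

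Both plasminogen activators fell. Plau, the urokinase-type activator, was at 35.6 and 56.4 CPM at RT, 11.3 and 9.14 CPM after cold and 15.3 and 16.6 CPM after CL. All treated libraries lay below both RT libraries, with log2 fold changes of -2.0 ± 0.19 (SE), adjusted p = 0.000992, for cold and -1.25 ± 0.20 (SE), adjusted p = 0.0241, for CL. Plat, the tissue-type activator, was at 114 and 140.3 CPM at RT, 67.2 and 60.4 CPM after cold and 79.8 and 93.2 CPM after CL, and the 3 pairs of libraries did not overlap (-0.86 ± 0.21 (SE), adjusted p = 0.0333, for cold). Adam19, a membrane protease of the same branch as Adam12, went from 115 and 182 to 79.5 and 81.5 CPM (-0.70 ± 0.17 (SE), adjusted p = 0.0338), and Adamts10, a fibrillin-binding ADAMTS, from 44.7 and 70.7 to 33.9 and 31.1 CPM (-0.65 ± 0.15 (SE), adjusted p = 0.0239). In both genes the RT and cold libraries did not overlap.

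Adam12 and Plau kept their calls in cold without any single library and under every other alternative that was run. Timp1 missed the threshold without RT replicate 2 (edgeR adjusted p = 0.0717) or without cold replicate 1 (0.0502), and Mmp9 did so if RT replicate 1 was left out (0.0622), or if RT replicate 2 was (0.0528). Plat, Adam17, Adam19 and Adamts10 missed it without any 1 of the 4 libraries of the contrast, with adjusted p between 0.0573 and 0.298, and Adamts7 without RT replicate 1 (0.0896), cold replicate 1 (0.0538) or cold replicate 2 (0.0851). Of 12 alternatives for each call, Adam17 was past the threshold in 3, with a log2 fold change down to 0.18, Adam19 in 6 and Plat, Adamts7 and Adamts10 in 7 each.

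**Figure D1:**
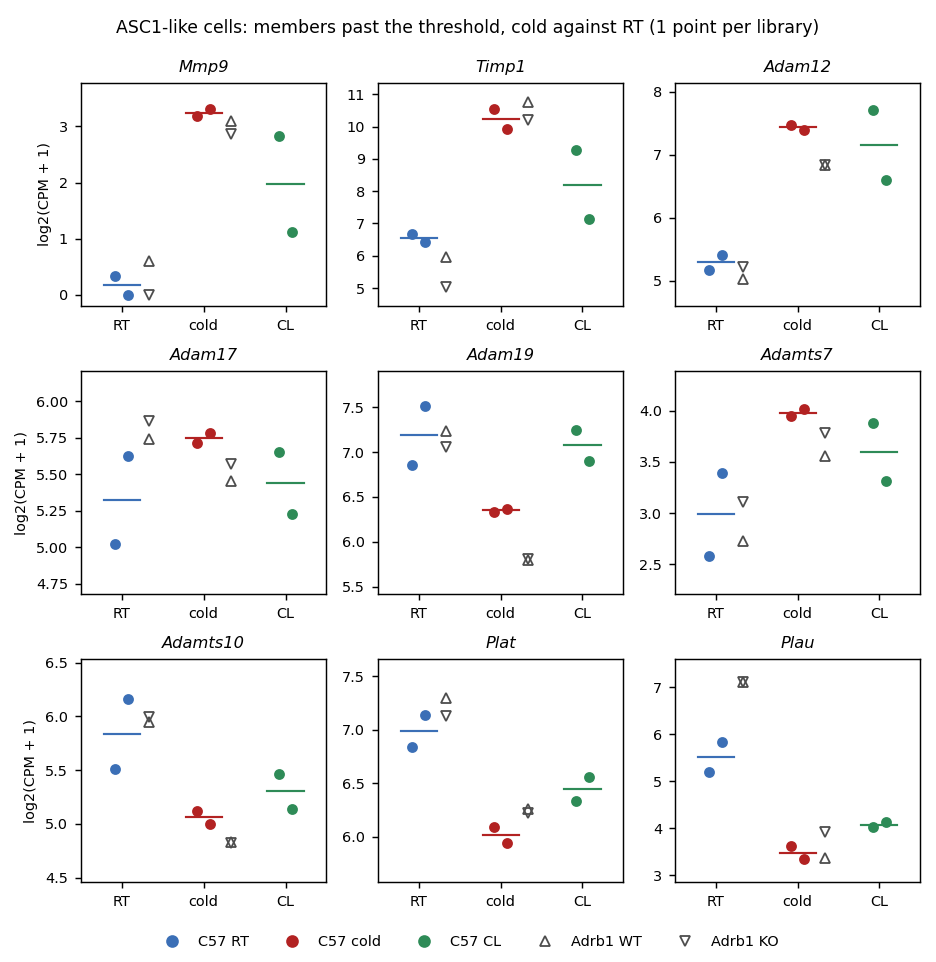
Levels, as log2 of CPM plus 1, of the 9 genes called after cold in ASC1-like cells, 1 panel per gene. Filled circles are C57 libraries at RT, after cold and after CL with a line at their mean, and open triangles are the single libraries of the Adrb1 line (upward WT, downward KO). Timp1, Mmp9 and Adam12 lie higher in both cold C57 libraries than in both RT libraries, and Plau and Plat lie lower.

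ASC1-like cells comprised 2 clusters whose proportions changed with treatment. The second, led by the chemokine genes Ccl2, Cxcl10 and Cxcl9 and also by Timp1, held 2.51% and 2.95% of the ASC1-like cells at RT, 59.9% and 65.5% after cold and 24.9% and 14.3% after CL. Within the other cluster alone, Timp1 was at 45.4 and 83.2 CPM at RT and 504 and 321 CPM after cold, Adam12 at 35.3 and 43.0 and 204 and 193 CPM, and Plau at 36.4 and 56.5 and 12.8 and 8.58 CPM. In that cluster 5 of 37 genes tested were called after cold, against 9.12% of all genes, which were Timp1, Mmp9, Adam12, Plau and Plat, and the log2 fold change of Timp1 was 2.86 (adjusted p = 0.00767, edgeR). The summed level of 5 markers of Cthrc1 fibroblasts in ASC1-like cells went from 67.4 to 91.0 CPM at RT to 1020.2 to 1065 CPM after cold and 407 to 733 CPM after CL, and the 10 ASC1 markers went from 18062 to 22062 to 11284 to 11656 and 10568 to 11877 CPM. Their part in the results was not tested.

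CL called 2 of the 39 genes in ASC1-like cells, Adam12 and Plau, against 1.21% of all genes. Over 11 alternatives each, the log2 fold change lay between 1.649 and 2.474 for Adam12 and between -1.498 and -1.072 for Plau. Both calls were lost when the shared barcodes were left out (adjusted p = 0.0553 and 0.0773, edgeR). Neither remained past 0.05 when RT replicate 1 was left out (0.0542 and 0.0922) or when RT replicate 2 was (0.144 and 0.14), and Plau also missed it without CL replicate 1 (0.0874). The direct contrast of cold against CL called none of the 39 genes by edgeR, against 0.343% of all genes, with 8 at an unadjusted p under 0.05 (of all genes, 12.0%) and 1 called by DESeq2 (0.861%). Cold and CL share their RT libraries, so their agreement is given by values only. With the replicate number as a block, cold gained calls for Mmp23, Adamts4 and Mmp19 and lost none, for 12 in all, against 18.6% of all genes under the block.

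Other highly expressed stromal members did not pass the test after cold. Mmp2 was at 1063 and 1224 CPM at RT and 606 and 725 CPM after cold in ASC1-like cells, without overlap but not past the threshold (log2 fold change -0.65 ± 0.53 (SE), adjusted p = 0.46). Adamts5 was at 775 and 686 and 265 and 285 CPM (-1.32 ± 0.43 (SE), adjusted p = 0.0786), and Loxl1, which crosslinks elastin, at 334 and 265 and 574 and 568 CPM (0.99 ± 0.44 (SE), adjusted p = 0.175). Timp2 was at 653 and 152 CPM at RT and 986 and 1015 CPM after cold, so the cold libraries were the higher ones, although the RT libraries were themselves far apart (log2 fold change 1.22 ± 0.79 (SE), adjusted p = 0.347). Mmp14 (392 and 802 CPM at RT and 647 and 632 CPM after cold) and Pcolce (2831 and 1962 and 2801 and 2921 CPM) overlapped between the groups.

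The other stromal subtypes were compared to ask whether the response was shared. In ASC2-like cells 35 of the genes were tested and 1 was called after cold, Adamts16, against 0.475% of all genes. Adamts16, a secreted ADAMTS protease, was at 99.3 and 115 CPM at RT, 25.5 and 28.5 CPM after cold and 55.6 and 68.2 CPM after CL. Both cold libraries lay below both CL libraries, which lay below both RT libraries. The log2 fold change after cold was -1.91 ± 0.24 (SE), adjusted p = 0.0169, and the call was lost without any 1 of the 4 libraries (adjusted p between 0.0653 and 0.197). Adam12 changed after cold by 2.17 ± 0.77 (SE) in ASC2-like and 1.25 ± 0.78 (SE) in ASC3-like cells (edgeR adjusted p = 0.383 and 0.827). Its response in ASC1-like cells was not called different from either. The differences were 0.08 ± 0.60 and 1.03 ± 0.58 (edgeR interaction test, adjusted p = 0.964 and 0.34).

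CL called none of the 35 genes in ASC2-like cells by edgeR, against 0.100% of all genes, with 9 at an unadjusted p under 0.05 (of all genes, 8.93%) and 4 called by DESeq2 (0.557%). With the replicate block, Timp1, Adam12 and Adamts15 were called, against 0.566% of all genes (adjusted p = 0.0361, 0.0207 and 0.0192). Timp1 was at 17.0 and 38.9 CPM at RT and 332 and 73.6 CPM after CL in these cells. In ASC3-like cells none of the 35 genes tested was called by edgeR after cold or CL, against 0.133% and 0.0569% of all genes, with 2 and 3 at an unadjusted p under 0.05 (of all genes, 7.03% and 7.48%) and 0 and 1 called by DESeq2 (0.370% and 0.379%). Adam12 was called after CL in ASC3-like cells with the replicate block, under which 0.569% of all genes were (adjusted p = 0.00298), at 14.0 and 7.51 CPM at RT and 132 and 25.6 CPM after CL. The leading member Mmp3 was at 748 and 1703 CPM at RT, 922 and 1419 CPM after cold and 1152 and 1057 CPM after CL in ASC3-like cells, which overlapped.

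Differences between subtypes in the response were tested as an interaction of class and treatment. The ASC1-like cells entered this test with their clusters together. The changed proportions of those clusters are therefore part of the response, and how much they contribute was not tested. After cold, 8 of 38 genes responded differently in ASC1-like and ASC2-like cells, against 8.88% of all genes, and 9 of 37 in ASC1-like and ASC3-like cells, against 7.14%. After CL none did by edgeR in either pair, against 0.985% and 0.426%; the counts without the filter on low counts were 5 and 2 of 46, against 2.22% and 1.43%. The response of Timp1 was larger in ASC1-like cells than in ASC2-like cells, by 1.81 ± 0.36 (SE) on the log2 scale (adjusted p = 0.00621, edgeR), and than in ASC3-like cells, by 2.87 ± 0.33 (adjusted p = 0.000191). After cold, Timp1 was at 133 and 67.1 CPM in ASC2-like cells, from 17.0 and 38.9 CPM at RT, and at 426 and 274 CPM in ASC3-like cells, from 155 and 224 CPM.

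Adamts5, Plau and Plat differed in the other direction. The fall of Plau in ASC1-like cells exceeded the change in ASC2-like cells, where it was at 35.9 and 36.2 CPM at RT and 34.5 and 23.5 CPM after cold, by -1.69 ± 0.25 (adjusted p = 0.000747). Plat was at 286 and 334 and 331 and 409 CPM in ASC2-like cells, and its response differed by -1.21 ± 0.19 (adjusted p = 0.0014). For Adamts5 the difference was -1.41 ± 0.35 against ASC2-like cells (adjusted p = 0.0205) and -1.30 ± 0.32 against ASC3-like cells (0.0242). ASC2-like cells held Adamts5 at 1330.0 and 1411 CPM at RT and 1566 and 1253 CPM after cold, and ASC3-like cells at 467 and 322 and 487 and 299 CPM, whereas ASC1-like cells went from 775 and 686 to 265 and 285 CPM.

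Loxl1 and the membrane-bound Mmp23 had a higher response in ASC1-like cells than in both other subtypes. Against ASC2-like cells the difference was 1.07 ± 0.30 for Loxl1 (adjusted p = 0.0381) and 1.27 ± 0.25 for Mmp23 (0.00613). Mmp23 in ASC1-like cells was at 117 and 73.3 CPM at RT and 283 and 245 CPM after cold, and in ASC2-like cells at 313 and 326 and 424 and 329 CPM. Of the differences named here, those of Timp1 against ASC3-like cells and of Plau against ASC2-like cells were past the threshold in every alternative run. Timp1 against ASC2-like cells missed it without cold replicate 2 (adjusted p = 0.092) and Plat likewise (0.0507), while Adamts5, Loxl1 and Mmp23 missed it without cold replicate 1 (0.251, 0.241 and 0.0632) or cold replicate 2 (0.133, 0.215 and 0.0971). Against ASC3-like cells, Loxl1 was past it in 2, Adamts5 in 3 and Mmp23 in 4 of 7 alternatives.

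**Figure D2:**
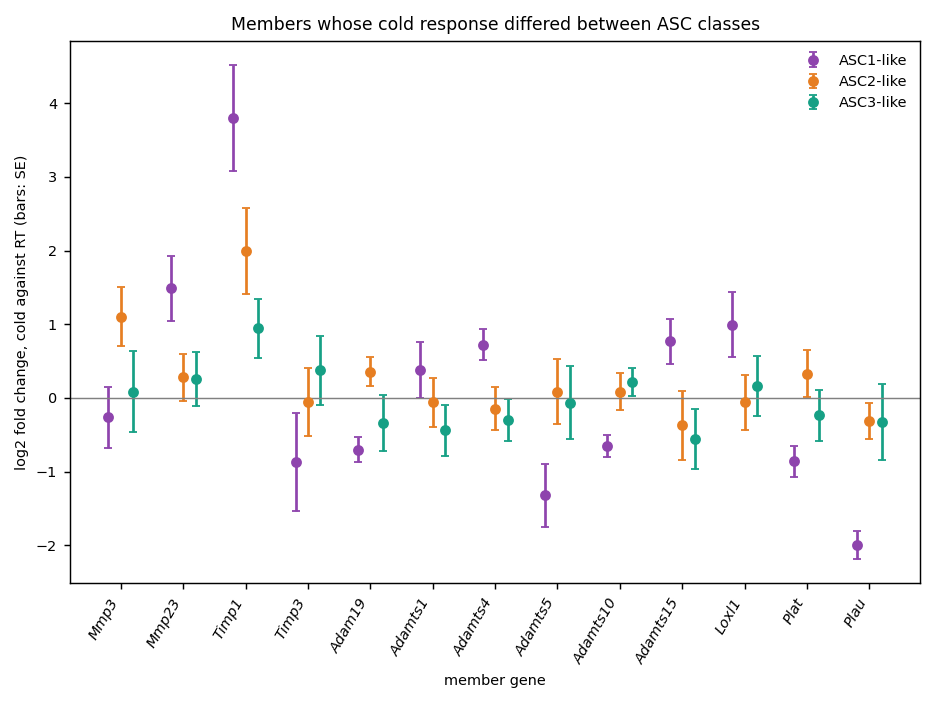
Log2 fold change from RT to cold (edgeR, bars are the approximate SE derived from the F statistic) in ASC1-like, ASC2-like and ASC3-like cells for the 13 genes whose response differed between ASC1-like cells and at least 1 other subtype. Timp1 lies highest in ASC1-like cells, and Plau, Plat and Adamts5 lie lowest there.

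The vascular classes were examined for the same genes. In VEC-like cells none of the 31 genes tested was called by edgeR after cold or CL, against 0.235% and 0% of all genes. At an unadjusted p under 0.05 there were 10 and 13 (of all genes, 10.3% and 7.83%), and DESeq2 called 1 in each contrast (0.579% and 0.167%). Timp4, the TIMP with its highest level in these cells, was at 954 and 1148 CPM at RT, 657 and 434 CPM after cold and 458 and 216 CPM after CL, and the RT libraries lay above all others (log2 fold change -0.94 ± 0.40 (SE), adjusted p = 0.477, for cold). Timp1 was at 3.85 and 3.89 CPM at RT and 25.7 and 23.3 CPM after cold in VEC-like cells, and was called with the replicate block, as were 0.422% of all genes (adjusted p = 0.0475, against 0.0692 without it).

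In mural-like cells 33 genes were tested and cold called 1, Timp1, against 0.308% of all genes. It was at 5.39 and 9.27 CPM at RT, 213 and 65.5 CPM after cold and 86.9 and 29.1 CPM after CL, without overlap between RT and treated libraries. The log2 fold change after cold was 4.35 ± 0.67 (SE), adjusted p = 0.0316. The call was lost without the cells of highest doublet score (adjusted p = 0.513), at equal depth (0.0511), without the shared barcodes (0.0519), and without RT replicate 1 (0.0705), RT replicate 2 (0.0744) or cold replicate 1 (0.109). Over the 10 alternatives the log2 fold change lay between 3.32 and 5.09. The 4 general ASC markers summed to 804 to 1242 CPM at RT and 1177 to 1818 CPM after cold in these cells. CL called none of the 33 genes in mural-like cells by edgeR, against 0% of all genes, with 7 at an unadjusted p under 0.05 (of all genes, 8.42%) and 2 called by DESeq2 (0.226%). With the replicate block, cold also called Plat and Mmp3 (adjusted p = 0.0419 and 0.0371) and CL called Timp1 and Adamts2 (0.0253 and 0.0306), against 0.699% and 0.206% of all genes.

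The log2 fold change of Timp1 after cold was positive in ASC1-like, ASC2-like, ASC3-like, VEC-like, mural-like, MAC-like, MONO-like and DEND2-like cells, and it was called in ASC1-like, mural-like and MAC-like cells. In differentiating adipocyte-like cells its RT libraries (72.7 and 129 CPM) and cold libraries (69.0 and 93.6 CPM) overlapped. The RT libraries held 29 and 180 of these cells, with 27210.5 and 137425.0 corrected counts over all genes, so the RT levels are poorly known. Levels differed widely between the classes, with cold libraries at 12.2 and 5.65 CPM in MAC-like cells and 1508 and 980.3 CPM in ASC1-like cells. SoupX had subtracted an estimate of free RNA from all counts, and the part of remaining free RNA in the low levels was not tested.

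**Figure D3:**
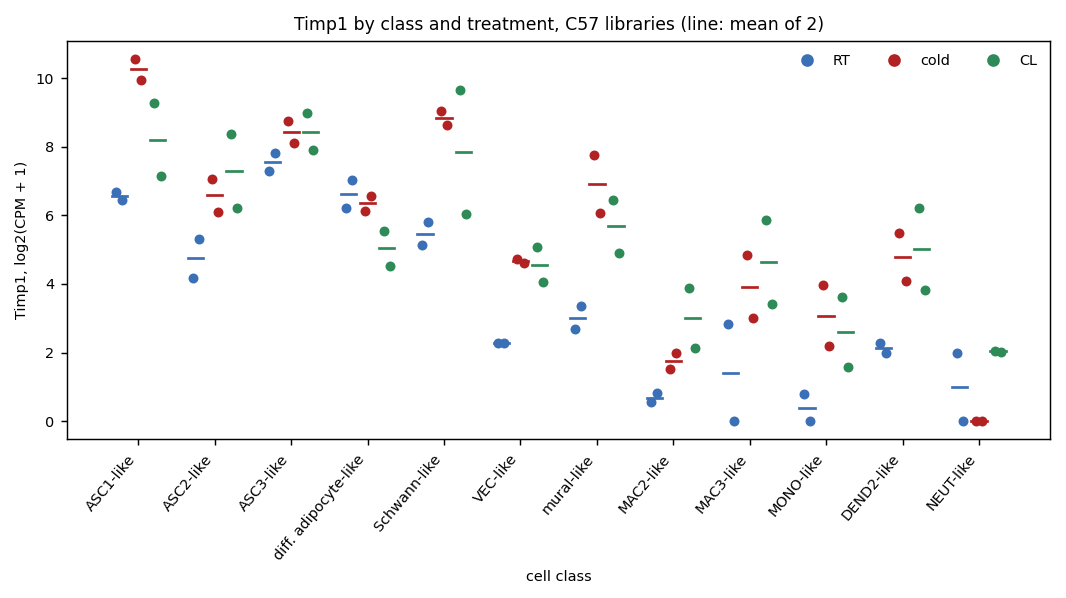
Timp1 level, as log2 of CPM plus 1, in 12 cell classes at RT, after cold and after CL, with 1 point per C57 library and a line at the mean of the 2. Cold points lie above RT points in ASC1-like cells (1508 and 980.3 against 101 and 85.6 CPM), which have the highest cold levels of the classes shown.

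Over all macrophage clusters together (MAC-like cells), 22 genes were tested and cold called 13, of which 8 rose and 5 fell, against 34.6% of all genes in either direction. The shares of all genes by direction are not printed for this contrast, so the split is not read as a result about the members. CL called 7, of which 4 rose and 3 fell, against 4.27% of all genes (2.66% higher and 1.61% lower). Of the 4 secreted MMPs with their highest RT level in a myeloid class, Mmp9 and Mmp13 fell after cold, whereas Mmp12 and Mmp8 rose. Adam8, Mmp19, Mmp14, Timp1, Timp2 and Plaur also rose, and Adam19, Adam15 and Pcolce fell.

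The genes for Mmp3, Mmp12 and Mmp13 lie close together on mouse chromosome 9, and the 120 bases before their start sites are shown because Mmp12 and Mmp13 moved in opposite directions over MAC-like cells as a whole. The sequences are from RefSeq on GRCm38.p6, all on the plus strand, at chr9:7445702-7445821 (Mmp3), chr9:7347254-7347373 (Mmp12, the second of 2 listed promoters), chr9:7272394-7272513 (Mmp13) and chrX:20870046-20870165 (Timp1). Capitals mark a match to TGANTCA, the core letters bound by AP-1 factors, which regulate several MMP genes.
Mmp3: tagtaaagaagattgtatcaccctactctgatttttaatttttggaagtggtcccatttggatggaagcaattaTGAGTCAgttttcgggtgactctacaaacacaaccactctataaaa
Mmp12: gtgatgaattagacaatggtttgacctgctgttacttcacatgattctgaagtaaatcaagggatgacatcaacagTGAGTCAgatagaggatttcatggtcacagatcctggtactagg
Mmp13: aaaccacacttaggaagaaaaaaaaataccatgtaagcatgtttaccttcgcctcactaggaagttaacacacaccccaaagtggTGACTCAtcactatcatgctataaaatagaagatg
Timp1: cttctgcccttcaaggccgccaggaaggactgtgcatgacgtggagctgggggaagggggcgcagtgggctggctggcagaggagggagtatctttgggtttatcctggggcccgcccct
The match lies 46 to 40 bases before the start in Mmp3, 44 to 38 in the Mmp12 promoter shown and 35 to 29 in Mmp13, and the Timp1 window and the first listed promoter of Mmp12 hold none. In the 250 bases before the start, on both strands, 5 of the 29 promoters listed for 25 members and 2217 of all 32851 promoters (6.75%) held TGANTCA, the others being Adam19 and Plaur. A match is a description of the letters and says nothing of binding in these cells.

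Mmp12 was at 39.3 and 13.7 CPM at RT, 194 and 210.3 CPM after cold and 119.6 and 68.4 CPM after CL in MAC-like cells. Every treated library exceeded both RT libraries, and the log2 fold change was 3.02 ± 0.40 (SE), adjusted p = 0.00109, for cold and 1.84 ± 0.40 (SE), adjusted p = 0.0405, for CL. Mmp13, a collagenase, was at 115 and 59.1 CPM at RT, 13.3 and 7.88 CPM after cold and 9.67 and 19.5 CPM after CL (-2.96 ± 0.44 (SE), adjusted p = 0.00172, for cold and -2.60 ± 0.45 (SE), adjusted p = 0.022, for CL). Mmp9 likewise fell, from 207 and 140.4 CPM at RT to 6.41 and 12.8 CPM after cold and 20.2 and 50.4 CPM after CL (-4.13 ± 0.51 (SE), adjusted p = 0.000766, for cold and -2.29 ± 0.47 (SE), adjusted p = 0.0367, for CL). Neither gene overlapped between RT and treated libraries. The 5 NEUT markers summed to 2275 to 4208 CPM at RT, 295 to 1039 CPM after cold and 824 to 6994 CPM after CL in MAC-like cells, and their part in the fall of Mmp9 was not tested.

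Adam8, a membrane protease of leukocytes, rose from 24.8 and 27.4 CPM at RT to 205 and 194 CPM after cold and 116 and 71.9 CPM after CL (2.99 ± 0.22 (SE), adjusted p = 0.000134, for cold and 1.83 ± 0.21 (SE), adjusted p = 0.00611, for CL). Mmp19 was at 10.6 and 3.99 CPM at RT and 49.5 and 26.0 CPM after cold (2.48 ± 0.47 (SE), adjusted p = 0.00481), and Mmp14 at 12.9 and 7.74 and 51.4 and 29.4 CPM (2.05 ± 0.43 (SE), adjusted p = 0.00741). In all 3 genes the cold libraries lay above both RT libraries. Adam19 moved the other way, from 76.9 and 49.7 CPM at RT to 10.1 and 8.25 CPM after cold and 26.0 and 29.4 CPM after CL (-2.70 ± 0.26 (SE), adjusted p = 0.000302, for cold and -1.19 ± 0.24 (SE), adjusted p = 0.0368, for CL).

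Among the inhibitors, Timp2 was at 320.1 and 392 CPM at RT, 543 and 549 CPM after cold and 1065 and 691 CPM after CL, rising with both treatments (0.68 ± 0.22 (SE), adjusted p = 0.0426, for cold and 1.28 ± 0.23 (SE), adjusted p = 0.0228, for CL). Timp1 was at 1.18 and 0.621 CPM at RT, 12.2 and 5.65 CPM after cold and 22.2 and 5.68 CPM after CL (3.42 ± 0.93 (SE), adjusted p = 0.0209, for cold and 4.00 ± 0.90 (SE), adjusted p = 0.0439, for CL). The RT libraries together held 5.0 corrected counts of Timp1, so the size of its changes is poorly known. Both genes separated RT from treated libraries. The 4 general ASC markers summed to 15.9 to 19.9 CPM at RT, 6.17 to 6.77 CPM after cold and 11.1 to 43.4 CPM after CL in MAC-like cells. Pcolce, a stromal gene, was at 10.2 and 6.15 CPM at RT and 2.85 and 2.09 CPM after cold (-1.61 ± 0.44 (SE), adjusted p = 0.0206), and the part of free stromal RNA in either value was not tested.

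Of the remaining calls after cold, Mmp8 went from 10.9 and 7.10 to 22.3 and 25.7 CPM (1.48 ± 0.37 (SE), adjusted p = 0.0159), Plaur from 106 and 83.6 to 196 and 172 CPM (1.02 ± 0.31 (SE), adjusted p = 0.0335) and Adam15 from 94.7 and 94.9 to 67.4 and 63.7 CPM (-0.47 ± 0.15 (SE), adjusted p = 0.041). None of these 3 was called after CL, where the levels were 9.43 and 17.1 CPM, 71.1 and 132 CPM and 101 and 81.6 CPM. Of the 13 calls after cold, those of Mmp9, Mmp12, Mmp13, Mmp19, Adam8 and Adam19 were past the threshold in every alternative run. The others missed it without at least 1 library, Timp1 and Timp2 without RT replicate 1 (adjusted p = 0.101 and 0.2), Mmp8, Mmp14 and Plaur without RT replicate 2 (0.11, 0.0667 and 0.161) and Adam15 and Pcolce without cold replicate 2 (0.254 and 0.0835). Of 10 alternatives, Timp2 and Adam15 were past the threshold in 5 each, Plaur in 6, Timp1 and Mmp8 in 7 each, Pcolce in 8 and Mmp14 in 9. None of the 7 calls after CL was past the threshold in every alternative. Of 10 for each, Adam8 was past it in 9, Mmp13 and Timp2 in 8 each, and Mmp9, Mmp12, Timp1 and Adam19 in 7 each.

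**Figure D4:**
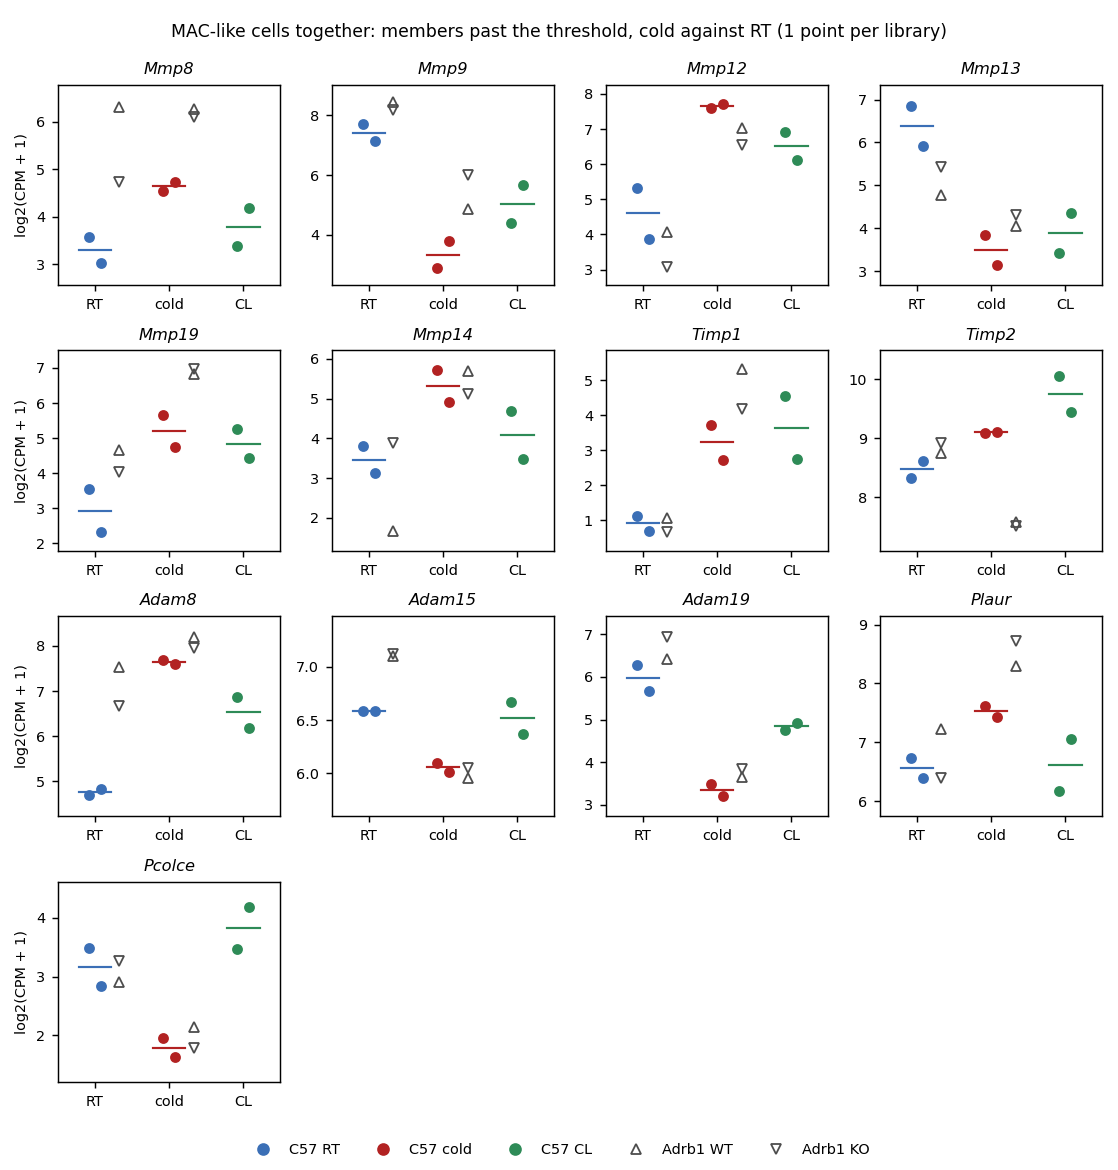
Levels, as log2 of CPM plus 1, of the 13 genes called after cold in MAC-like cells, 1 panel per gene, with filled circles for C57 libraries at RT, after cold and after CL, a line at their mean, and open triangles for the Adrb1 line (upward WT, downward KO). Mmp12, Adam8 and Mmp19 lie higher and Mmp9, Mmp13 and Adam19 lower in both cold C57 libraries than in both RT libraries.

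The makeup of the macrophages changed at the same time. MAC1-like cells, which carry Gpnmb, Trem2 and Spp1, were 1.84% and 3.92% of macrophages at RT, 51.9% and 59.7% after cold and 26.9% and 16.3% after CL, and MAC2-like cells, which carry Folr2, F13a1 and Lyve1, were 90.2% and 84.7%, 10.5% and 6.25% and 56.7% and 61.8%. MAC1-like cells were not tested, since RT replicate 1 held 15 of them. After cold these cells had Mmp12 at 287 and 294 CPM, against 49.5 and 24.3 CPM in MAC2-like cells. The members were therefore also tested within MAC2-like cells, the largest macrophage class at RT. MAC3-like cells also held at least 20 cells in every C57 library but were not among the classes chosen for testing.

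Within MAC2-like cells 17 genes were tested. Cold called 6 of them, against 6.29% of all genes (3.10% higher and 3.20% lower), with Adam8, Mmp19 and Timp2 higher and Mmp9, Mmp13 and Adam19 lower, each in the direction it had over all macrophages. Mmp13 was at 128 and 66.2 CPM at RT, 3.25 and 2.99 CPM after cold and 10.5 and 31.3 CPM after CL. The cold libraries held 4.94 and 1.98 corrected counts of it, and the log2 fold change was -5.01 ± 0.75 (SE), adjusted p = 0.00552. Mmp9 was at 219 and 123 CPM at RT and 35.4 and 75.3 CPM after cold (-1.82 ± 0.37 (SE), adjusted p = 0.0206), Adam8 at 9.49 and 6.17 and 42.5 and 49.2 CPM (2.44 ± 0.30 (SE), adjusted p = 0.00177) and Timp2 at 351 and 441 and 942 and 1075 CPM (1.24 ± 0.26 (SE), adjusted p = 0.0223). The RT and cold libraries did not overlap in any of the 4.

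Adam19 was at 83.8 and 53.5 CPM at RT and 31.1 and 29.9 CPM after cold in MAC2-like cells (-1.27 ± 0.28 (SE), adjusted p = 0.027), and Mmp19 at 6.91 and 2.99 and 19.6 and 17.4 CPM (1.86 ± 0.47 (SE), adjusted p = 0.0407). Mmp12 was at 24.8 and 12.8 CPM at RT and 49.5 and 24.3 CPM after cold and did not pass (0.96 ± 0.41 (SE), adjusted p = 0.172). CL called 4 of the 17 genes, against 3.00% of all genes (1.71% higher and 1.29% lower), with Adam8 (2.07 ± 0.28, adjusted p = 0.00475) and Timp2 (1.36 ± 0.26, 0.0204) higher and Mmp9 (-2.56 ± 0.35, 0.00475) and Mmp13 (-2.31 ± 0.47, 0.0263) lower. Only the cold call of Adam8 was past the threshold in every alternative run of these 10. Of 10 alternatives for each cold call, Mmp9, Mmp13 and Adam19 were past the threshold in 7 each, Timp2 in 6 and Mmp19 in 5. The 8 MAC2 markers summed to 6872 to 9569 CPM at RT and 7407 to 8507 CPM after cold, and the 6 MAC1 markers to 1096 to 1097 and 2619 to 2846 CPM.

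Mmp12 was also called higher after cold in DEND2-like and MONO-like cells. In DEND2-like cells 12 genes were tested, and cold called Mmp12 and Timp2 higher and Adam19 lower, against 6.01% of all genes. Mmp12 was at 1.93 and 2.97 CPM at RT, 35.3 and 44.9 CPM after cold and 35.1 and 28.5 CPM after CL. The RT libraries held 2.99 corrected counts together, so the changes are given as ratios of pooled CPM, 15.7 for cold (95% exact interval 5.29 to 76.0) and 12.7 for CL (4.16 to 63.5), with adjusted p of 0.00383 and 0.0386 (edgeR). Mmp12 was the only call after CL, against 0.365% of all genes. It was lost without RT replicate 1 (0.0554 for cold and 0.351 for CL), and for CL also without RT replicate 2 (0.133), without CL replicate 1 (0.111) or without the shared barcodes (0.124).

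Timp2 in DEND2-like cells was at 23.5 and 34.4 CPM at RT and 96.9 and 100.2 CPM after cold (1.51 ± 0.22 (SE), adjusted p = 0.00582), and Adam19 at 24.6 and 22.8 and 6.16 and 5.17 CPM (-2.29 ± 0.35 (SE), adjusted p = 0.00727). Neither overlapped between the groups, and both calls were lost without RT replicate 1 (adjusted p = 0.0586 and 0.101), Adam19 also without RT replicate 2 (0.0565). The 5 general macrophage markers summed to 498 to 512 CPM at RT, 1299 to 1738 CPM after cold and 1179.9 to 1855 CPM after CL in DEND2-like cells, and their part in these results was not tested. With the replicate block, CL also called Timp1, against 0.757% of all genes (adjusted p = 0.0301).

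In MONO-like cells 15 genes were tested and cold called 1, Mmp12, against 0.718% of all genes. It was at 0 in both RT libraries, at 14.7 and 7.95 CPM after cold and at 9.49 and 1.98 CPM after CL. Set against a floor of 3 counts over both RT libraries, the cold level was 11.2-fold higher (adjusted p = 0.0431, edgeR). The 95% exact interval of the ratio of pooled CPM, for counting error only, had a lower limit of 8.48 and no upper limit. The call was lost without any 1 of the 4 libraries (adjusted p between 0.0639 and 0.512). At equal depth Mmp12 did not pass the filter on low counts and was not tested, and DESeq2 gave it no adjusted p. The 5 general macrophage markers summed to 516 to 713 CPM at RT and 674 to 1006 CPM after cold in these cells. With the replicate block, cold called 7 genes, against 4.76% of all genes, adding Timp1, Adam8, Mmp19, Mmp14, Mmp8 and Adam19 (adjusted p from 0.00295 to 0.0483). CL called none by edgeR, against 0.151% of all genes, with 7 at an unadjusted p under 0.05 (of all genes, 12.6%) and 0 by DESeq2 (0.403%). With the block it called Mmp12 and Mmp8 (adjusted p = 0.045 and 0.02), against 1.39%.

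NEUT-like cells held the highest levels of Mmp9 and Adam8 at RT, and neither moved past the threshold. Of 8 genes tested, edgeR called none after cold, with 0 at an unadjusted p under 0.05 and 0 by DESeq2, and none after CL, with 3 and 0, against 0.0275% and 0.385% of all genes. Of all genes, 7.51% and 10.7% had an unadjusted p under 0.05 and DESeq2 called 0.137% and 0.302%. Mmp9 was at 650.3 and 720.3 CPM at RT, 555 and 739 CPM after cold and 647 and 670.0 CPM after CL, so the groups overlapped. Adam8 was at 359 and 323 CPM at RT, 228 and 271 CPM after cold and 176 and 235 CPM after CL, with the RT libraries above all others. Cold replicate 1 held 38 NEUT-like cells, which limits what could be detected. With the block, CL called Timp2, against 1.43% of all genes (adjusted p = 0.0451), at 83.0 and 83.8 CPM at RT and 225 and 160.4 CPM after CL.

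The Adrb1 line gave 1 library per group and no test. Differences are log2 of CPM plus 1 in cold minus RT, and kit version differed with temperature. The makeup of ASC1-like cells at RT also differed from that of C57 mice. The cluster led by chemokine genes held 27.8% of them at RT in WT and in KO, against 2.51% and 2.95% in C57 mice. After cold it held 48.6% (WT) and 52.4% (KO). Of the 9 genes called in ASC1-like cells of C57 mice, 8 had the same sign in WT and 8 in KO, close to the 88.7% of all called genes with the same sign in each. Timp1 was at 61.9 CPM in WT at RT and 1746 CPM in WT after cold, and at 31.7 and 1177 CPM in KO, differences of 4.80 and 5.17. Plau was at 137 and 9.34 CPM in WT and at 138 and 14.2 CPM in KO, differences of -3.74 and -3.18. For Adam12 the differences were 1.80 and 1.62. WT and KO thus moved the same way for these 3 genes. The exception among the 9 was Adam17, which was lower after cold in both genotypes (-0.29 and -0.29).

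In MAC-like cells, 11 of the 13 genes called in C57 mice had the same sign in WT and 12 in KO, against 87.4% of all called genes in each. Timp2 was opposite in both genotypes and Mmp8 in WT. Within MAC2-like cells 5 of 6 called genes had the same sign in each genotype, the exceptions being Timp2 in WT and Mmp19 in KO, against 80.4% of all called genes in WT and 77.7% in KO. In DEND2-like cells all 3 did in WT and 1 did in KO, where Mmp12 and Timp2 were opposite, against 78.0% and 81.6%. Mmp12 in DEND2-like cells was at 2.17 CPM in WT at RT and 32.2 CPM in WT after cold, but at 9.23 and 5.66 CPM in KO. In MONO-like cells it was at 0 and 16.4 CPM in WT and at 8.64 and 4.56 CPM in KO. These RT levels rest on 1.00 (WT) and 2.00 (KO) corrected counts in DEND2-like cells and on 0 and 8.99 in MONO-like cells, so the directions are poorly known. In MAC-like cells Mmp12 was higher after cold in both genotypes, by 2.95 in WT and 3.45 in KO, as it was in MAC2-like cells (2.49 and 4.43) and, from 0 at RT in both, in NEUT-like cells (21.9 and 15.9 CPM after cold). The NEUT-like cells after cold held 545583 (WT) and 364932 (KO) UMIs over all genes, so these levels rest on few counts. Mmp12 was not tested in NEUT-like cells of C57 mice, and the part of free RNA was not tested.

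A list of 55 other genes of matrix turnover, among them cathepsins, serpins, collagen hydroxylases and further ADAM and ADAMTS genes, was examined beside the set. In ASC1-like cells 40 of them were tested and cold called 7, against 12.5% of all genes (6.64% higher and 5.90% lower), of which 1 rose, the procollagen lysyl hydroxylase Plod3 (log2 fold change 0.86), and 6 fell. The largest falls were in Adamtsl3 (-2.84), an ADAMTS-like matrix protein without protease activity, Tll1 (-2.18), a procollagen C-proteinase related to Bmp1, and the matrix proteoglycan Spock2 (-1.56). CL called none of the 40 by edgeR, against 1.21% of all genes. At an unadjusted p under 0.05 there were 9 (of all genes, 13.6%), and DESeq2 called 2 (2.50%).

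In MAC-like cells 28 of the 55 were tested and cold called 15, of which 12 rose and 3 fell, against 34.6% of all genes in either direction. The shares by direction are not printed, so this split too is a description only. The largest changes were Serpinf1 (-4.99), a serpin that does not inhibit proteases, Adam22 (-4.68), an ADAM without protease activity, and Ctsk (4.18), the collagen-degrading cathepsin K. CL called 6, against 4.27% of all genes, with Ctsd (2.91), Ctsl (2.66) and the heparanase gene Hpse (2.40) the largest. Within MAC2-like cells 22 were tested and cold called 11, against 6.29% of all genes, of which 8 rose and 3 fell, with Ctsk (5.32) and Ctsd (3.21) among the largest, and CL called 6, all higher, against 3.00%. In DEND2-like cells cold called 3 of 13, against 6.01% of all genes, Ctsd (3.03), Ctsb (1.40) and Ctsz (1.18), all higher. The collagen prolyl hydroxylase P4ha2 was called in mural-like cells after cold (1.64), 1 of 32 tested, against 0.308% of all genes. None of the list was called after cold in ASC2-like, ASC3-like or VEC-like cells, against 0.475%, 0.133% and 0.235% of all genes. At an unadjusted p under 0.05 there were 6, 2 and 7 (of all genes, 9.82%, 7.03% and 10.3%), and DESeq2 called 0 in each.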

How the data were processed

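The deposited matrices hold expected counts: the authors aligned and counted UMIs with Cell Ranger 3.0.1 (mm10, per the submitters' processing notes) and subtracted free RNA with SoupX, with Fabp4 and Car3 set as genes absent from stromal cells. Of the non-zero values per library, 97.2% to 99.6% were not whole. Cells with under 10% mitochondrial UMIs and under 15000 UMIs were kept, with under 4000 genes in Lin+ and over 100 in Lin- libraries. Each fraction was clustered once (scanpy 1.11.5, leidenalg 0.10.2; 2000 variable genes without the 46 members or any marker, 30 components, 30 neighbours, resolution 1, after aligning cohorts), giving 29 Lin- and 27 Lin+ clusters named from marker lists. No doublet was removed, except in an alternative without the top 6% of Scrublet scores per library.

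Corrected counts were summed per class and library, rounded, and fitted with edgeR 4.0.16 (TMM, filterByExpr, glmQLFit, glmQLFTest, two-sided) over the 6 C57 libraries, for 10 classes chosen for testing, each with at least 20 cells in every library. Other classes that met this minimum (MAC3-like, DEND1-like, DEND3-like, DEND4-like, Schwann-like and differentiating adipocyte-like cells) were described and not tested. The difference in response between subtypes was a class by treatment term with the library as a block. Benjamini-Hochberg adjustment ran over all genes of a fit, and the code was tested on simulated data. Alternatives used DESeq2 1.42.0, no filter on low counts, equal depth, the replicate block, both lines, 1 ASC1-like cluster alone, no shared barcodes and each library left out; the last but one and the single cluster were chosen after seeing the data. The 46 genes, the marker lists and the list of other matrix genes were chosen with earlier results of these data known. Per-library values are named for genes called in any class, the highest gene of each role at RT, Adam12, and, chosen after their values were seen, genes whose response differed between subtypes or that were called with the block.

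The replicate numbers were taken to mark shared experiments, because the study's methods merge libraries of the same replicate experiment. The main fits of single classes nevertheless had no block for the replicate number, which was run as an alternative. The deviations of same-numbered libraries from their group means correlated at -0.0906 to 0.332 over genes, in 30 correlations, 1 for each class and pair of groups, and with 2 pairs the check is weak. Libraries are pools of mice, so p-values measure the spread between pools, and intervals cover counting error only. Replicates differed beyond sampling noise (chi-square per degree of freedom at least 2.59), so none was counted as a duplicate.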

Additional observations from a re-analysis of the deposited data

Results flagged for a closer look

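The cold response differed between stromal subtypes by the interaction test for 13 genes, given here as the log2 response in ASC1-like cells minus that in the other subtype, with edgeR's adjusted p over all genes. Against ASC2-like cells the differences were -1.29 for Mmp3 (adjusted p = 0.013), 1.27 for Mmp23 (0.00613), 1.81 for Timp1 (0.00621), -1.08 for Adam19 (0.00209), -1.41 for Adamts5 (0.0205), 1.07 for Loxl1 (0.0381), -1.21 for Plat (0.0014) and -1.69 for Plau (0.000747). Against ASC3-like cells they were 1.29 for Mmp23 (0.0101), 2.87 for Timp1 (0.000191), -1.34 for Timp3 (0.0172), 0.83 for Adamts1 (0.0459), 1.04 for Adamts4 (0.0169), -1.30 for Adamts5 (0.0242), -0.90 for Adamts10 (0.00921), 1.35 for Adamts15 (0.00488) and 0.84 for Loxl1 (0.0417). Mmp23, Timp1, Adamts5 and Loxl1 differed in both comparisons, which share the ASC1-like cells. Both comparisons took the ASC1-like clusters together, and the part of their changed proportions was not tested. Of 7 alternatives for each, the difference against ASC3-like cells was past the threshold in 2 for Adamts10 and Loxl1, 3 for Adamts5, 4 for Mmp23, Adamts1, Adamts4 and Adamts15, 5 for Timp3 and 7 for Timp1, and that against ASC2-like cells in 4 for Mmp3, 5 for Mmp23, Adamts5 and Loxl1, 6 for Timp1, Adam19 and Plat and 7 for Plau.

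For Mmp3 the RT and cold levels were 229 and 527 and 192 and 335 CPM in ASC1-like cells and 71.3 and 122 and 109.7 and 261 CPM in ASC2-like cells. Timp3 stood at 636 and 856 and 286 and 443 CPM in ASC1-like cells and at 305 and 288 and 398 and 371 CPM in ASC3-like cells. Adamts15 was at 26.3 and 51.5 and 54.8 and 58.0 CPM in ASC1-like cells and at 48.9 and 65.0 and 43.8 and 32.0 CPM in ASC3-like cells. In ASC1-like cells the RT and cold libraries overlapped for Mmp3 and did not for Timp3 or Adamts15.

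Schwann-like cells entered no test, and their Timp1 level was separated between groups. It was at 34.1 and 54.7 CPM at RT and 520.1 and 399 CPM after cold, the lower of the cold libraries being at 398.9 CPM, and at 798 and 64.2 CPM after CL. The RT libraries held 6.84 and 6.44 corrected counts of it.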

How the results depend on the processing

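No call changed its sign in any alternative, and 11 of the 65 calls stayed past the threshold in all that were run. Leaving out 1 library at a time kept 119 and lost 141 calls, the other alternatives lost 2 (DESeq2), 2 (no filter on low counts), 1 (both lines), 1 (without top doublet scores), 5 (without shared barcodes), 11 (equal depth) and 4 (a single ASC1-like cluster), and the replicate block lost 0 of 48. It changed no call beyond those given in the report, the gain of Mmp19 and of Mmp19 and Adam19 after CL in MAC-like and MAC2-like cells, and Timp1 after cold in DEND2-like cells. Over all genes, CPM differences had medians from -0.22 to 0.28 (log2), against medians from -0.024 to 0.023 in the fits. With 2 pools a group, a missed threshold does not show that levels were equal, and low genes in small classes (38 NEUT-like cells in a library) could not be resolved. The causes of the changes below were not tested.

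The counts of called members that moved by over 1.5 times follow, each with the count as reported last. Except where given above, the share of all genes called under the same alternative is not printed. A higher or lower count is therefore not read as a result about the members. Fitting the 8 RT and cold libraries of both lines gave 18 (ASC1-like cells, cold, 9), 3 (ASC2-like cells, cold, 1) and 2 (ASC3-like cells, cold, 0). In the Adrb1 line of that fit, kit version differed with temperature. The larger ASC1-like cluster alone gave 5 (ASC1-like cells, cold, 9). DESeq2 gave 4 (ASC1-like cells, CL, 2), 1 (ASC1-like cells, cold against CL, 0), 4 (ASC2-like cells, CL, 0), 1 (ASC3-like cells, CL, 0), 1 (VEC-like cells, cold, 0), 1 (VEC-like cells, CL, 0), 2 (mural-like cells, CL, 0) and 2 (MONO-like cells, cold, 1). Without the filter on low counts there were 7 (ASC1-like cells, CL, 2), 3 (ASC1-like cells, cold against CL, 0), 5 (ASC2-like cells, cold, 1), 5 (ASC2-like cells, CL, 0), 1 (ASC3-like cells, cold, 0), 1 (ASC3-like cells, CL, 0), 4 (VEC-like cells, cold, 0), 7 (VEC-like cells, CL, 0), 6 (mural-like cells, cold, 1), 4 (mural-like cells, CL, 0), 8 (MAC2-like cells, CL, 4), 7 (MONO-like cells, cold, 1), 6 (MONO-like cells, CL, 0), 7 (DEND2-like cells, cold, 3), 2 (DEND2-like cells, CL, 1), 15 (ASC1-like minus ASC2-like response, cold, 8), 5 (ASC1-like minus ASC2-like response, CL, 0) and 2 (ASC1-like minus ASC3-like response, CL, 0). Leaving out the shared barcodes gave 0 (ASC1-like cells, CL, 2), 1 (VEC-like cells, cold, 0), 0 (mural-like cells, cold, 1) and 0 (DEND2-like cells, CL, 1). The replicate block gave 3 (ASC2-like cells, CL, 0), 1 (ASC3-like cells, CL, 0), 1 (VEC-like cells, cold, 0), 3 (mural-like cells, cold, 1), 2 (mural-like cells, CL, 0), 7 (MONO-like cells, cold, 1), 2 (MONO-like cells, CL, 0), 2 (DEND2-like cells, CL, 1) and 1 (NEUT-like cells, CL, 0). Leaving out the top doublet scores gave 0 (mural-like cells, cold, 1). Equal depth gave 0 (mural-like cells, cold, 1), 0 (MONO-like cells, cold, 1) and 1 (ASC1-like minus ASC2-like response, CL, 0). Without the shared barcodes and with the single cluster the alternatives were added after the data were seen. Leaving out each library of a contrast in turn gave ranges of 3 to 6 (ASC1-like cells, cold, 9), 0 to 5 (ASC1-like cells, CL, 2), 0 to 0 (ASC2-like cells, cold, 1), 0 to 3 (ASC2-like cells, CL, 0), 0 to 2 (ASC3-like cells, CL, 0), 0 to 1 (VEC-like cells, CL, 0), 0 to 2 (mural-like cells, cold, 1), 0 to 4 (mural-like cells, CL, 0), 7 to 10 (MAC-like cells, cold, 13), 0 to 9 (MAC-like cells, CL, 7), 1 to 4 (MAC2-like cells, cold, 6), 1 to 9 (MAC2-like cells, CL, 4), 0 to 2 (MONO-like cells, cold, 1), 0 to 4 (MONO-like cells, CL, 0), 0 to 3 (DEND2-like cells, cold, 3), 0 to 1 (DEND2-like cells, CL, 1), 0 to 1 (NEUT-like cells, CL, 0), 3 to 10 (ASC1-like minus ASC2-like response, cold, 8), 1 to 4 (ASC1-like minus ASC2-like response, CL, 0), 3 to 5 (ASC1-like minus ASC3-like response, cold, 9) and 0 to 2 (ASC1-like minus ASC3-like response, CL, 0).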
